A study of Mus musculus with 2 samples.

Results

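A set of 10 genes of the thermogenic programme was read in visceral adipose tissue (VAT) of young mice, made up of Ucp1, Cidea, Cox7a1, Cpt1b, Kcnk3, Dio2, Elovl3, Ppargc1a, Pank1 and Esrrg. They were chosen by symbol as genes of brown and beige fat, with earlier results of these data known, and all 10 matched 1 row each among the 56980 genes of the count tables. The tissue was gonadal fat of female C57BL/6J mice aged 2 months, with 1 mouse per library and 2 libraries, called VAT young replicate 1 and replicate 2. Both mice were untreated and without an engineered allele as far as the labels tell, so that the data hold 1 group and the comparisons are between nuclei within it. By the protocol, nuclei of whole tissue were captured with the Singleron GEXSCOPE kit, whereas the sample labels read 10x Genomics and give adipocytes as the cell type. Each RNA molecule carried a unique molecular identifier (UMI), and a level is given as UMIs of the gene per 1000000 UMIs (CPM) summed over the nuclei of a cell type.

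Brown and beige adipocytes burn fuel to make heat. Noradrenaline acts on adrenergic receptors and raises cAMP, which mobilises fatty acids and switches on transcription, and the uncoupling protein of the inner mitochondrial membrane then lets protons return without making ATP. Gonadal fat of mice is a white depot and is known to form few beige cells.

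The members cover the steps of this programme. Ucp1 encodes the uncoupling protein. Cox7a1 encodes a subunit of cytochrome c oxidase found in heart, muscle and brown fat. Cpt1b is the muscle form of the enzyme that admits long-chain fatty acids to mitochondria, Pank1 a pantothenate kinase that starts coenzyme A synthesis, and Elovl3 an elongase of very long chain fatty acids. Cidea coats lipid droplets, Kcnk3 is a potassium channel of the plasma membrane, and Dio2 converts thyroxine to the active thyroid hormone. Ppargc1a encodes the coactivator PGC-1α and Esrrg an orphan nuclear receptor, and both drive genes of mitochondrial respiration.

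Promoters are shown because several members were detected in the same nuclei and the programme is driven by nuclear receptors and by cAMP. Of the 10 members, 6 had a window of 250 bases upstream of a start site in RefSeq (mouse GRCm38.p6), 10 windows in all, for Ucp1, Cox7a1, Dio2, Ppargc1a, Pank1 and Esrrg. Both strands were searched for AGGTCA, the hexamer of nuclear receptors, for TCAAGGTCA, the element of the oestrogen-related receptors, for AGGTCANAGGTCA, a direct repeat, and for TGACGTCA, the cAMP response element. The second element and the direct repeat hold the letters of the hexamer. Of the 10 windows, 1 held the hexamer and another the cAMP response element, and both are shown here 5′ to 3′ with the motif in capitals, from chr8:83290098-83290347 on the plus strand and chr12:90739039-90739288 on the minus strand.
Ucp1: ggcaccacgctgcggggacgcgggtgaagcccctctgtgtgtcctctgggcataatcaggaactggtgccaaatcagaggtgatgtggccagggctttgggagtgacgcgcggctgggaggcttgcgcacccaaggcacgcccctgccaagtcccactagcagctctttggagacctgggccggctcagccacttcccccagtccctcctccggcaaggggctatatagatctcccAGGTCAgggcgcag
Dio2: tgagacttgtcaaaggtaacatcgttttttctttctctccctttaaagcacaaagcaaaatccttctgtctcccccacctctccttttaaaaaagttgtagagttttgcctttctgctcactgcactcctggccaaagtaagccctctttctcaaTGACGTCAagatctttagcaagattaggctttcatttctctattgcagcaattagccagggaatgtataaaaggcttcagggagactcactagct
The Ucp1 window held AGGTCA at 14 to 9 bases before the start site, letters that 14.0% of 32851 RefSeq promoter windows hold. The Dio2 window held TGACGTCA at 95 to 88 bases before the start site, against 1.55% of the windows. TCAAGGTCA and AGGTCANAGGTCA were in 0.387% and 0.0335% of all windows and in none of the members' windows, which says only that the letters are absent from these bases.

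The limits on nuclei were more than 500 genes, more than 1000 UMIs and less than 15% of UMIs from mitochondrial genes. They left 2833 nuclei with 8466237 UMIs in replicate 1 and 12225 nuclei with 48068273 UMIs in replicate 2. The libraries stood apart in quality, with a median mitochondrial share of 6.20% in replicate 1 and 0.621% in replicate 2, and 27 barcodes of kept nuclei occurred in both. Clusters were named from marker genes with the members left out of the clustering. This gave 1697 and 5007 adipocyte nuclei (replicate 1 and replicate 2, the order used throughout), next to mesothelial nuclei, fibro-adipogenic progenitors (FAPs), endothelial, immune and smooth muscle nuclei, while 474 and 2987 nuclei stayed unnamed. Of the unnamed nuclei, 308 and 2217 lay in the adipocyte cluster with a marker score below the limit. Another 68 and 419 met the adipocyte score but lay in clusters led by another type, and were kept out of the adipocytes by a rule set after seeing the data. The 8 adipocyte markers, which gave the adipocyte cluster its name, summed to 9452 and 8952 CPM there and to 1731 and 1398 CPM in the other named types pooled. Adipocyte RNA outside adipocytes is the background for what follows. Adipoq, which encodes adiponectin, was at 964 and 343 CPM in adipocyte nuclei and at 255 and 155 CPM in the other named types, and at 550 and 588 CPM in endothelial nuclei.

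In adipocyte nuclei 9 of the 10 members were detected. Kcnk3 was at 118 CPM in replicate 1 and 95.8 CPM in replicate 2. Ppargc1a was at 71.1 and 107 CPM, and Cidea at 78.3 and 55.7 CPM. Esrrg was at 59.9 and 77.3 CPM and Pank1 at 41.7 and 59.9 CPM. Ucp1, the gene that defines brown fat, was at 18.4 and 14.6 CPM, from 110 and 454 UMIs. Elovl3 was at 14.5 and 7.88 CPM and Cox7a1 at 5.17 and 2.25 CPM, the latter from 31 and 70 UMIs.

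Dio2 was the member on which the mice differed most, at 3.34 CPM in replicate 1 and 19.8 CPM in replicate 2, a 5.92-fold difference. Of 20068 genes, 0.807% were at least as far apart between the libraries. The other detected members differed by 1.23-fold (Kcnk3) to 2.30-fold (Cox7a1). With 1 library per mouse, the mouse, the mitochondrial share and the depth cannot be told apart.

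Cpt1b had no UMI in any nucleus of either library. In adipocyte nuclei a count of 0 allows up to 0.501 and 0.0965 CPM, taking 3 counts as the floor. The gene lies at chr15:89300606-89310239 (GRCm39), and overlaps the longer gene Gm44502 on the same strand, which had 2 UMIs in all, and reads that fit both may not have been counted for either. Its level is therefore uncertain. Other members overlap genes of the opposite strand, for which the strand setting of the counting is not given in the sources used here. Over all nuclei the antisense partner of Cidea, B430212C06Rik, had 355 UMIs, that of Kcnk3, Gm9899, had 525, that of Dio2, Gm26512, had 876 and that of Esrrg, Gm55759, had 100.

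Per kilobase of exon, Cidea had the highest level at 35.0 and 24.9 CPM per kb, with Kcnk3 at 12.7 and 10.3 and Ppargc1a at 10.1 and 15.1. Ucp1 was at 9.46 and 7.53 CPM per kb and Esrrg at 9.65 and 12.5. Of the 9 detected members, Dio2 was lowest at 0.519 and 3.07. Nuclear RNA also holds introns, and Esrrg, which spans chr1:187340988-187947082, had 0.0988 and 0.128 CPM per kb of gene body against 3.14 and 2.24 for Cidea and 3.44 and 1.87 for Elovl3. The order of the members thus depends on the length used, and UMIs need not scale with either.

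**Figure D1:**
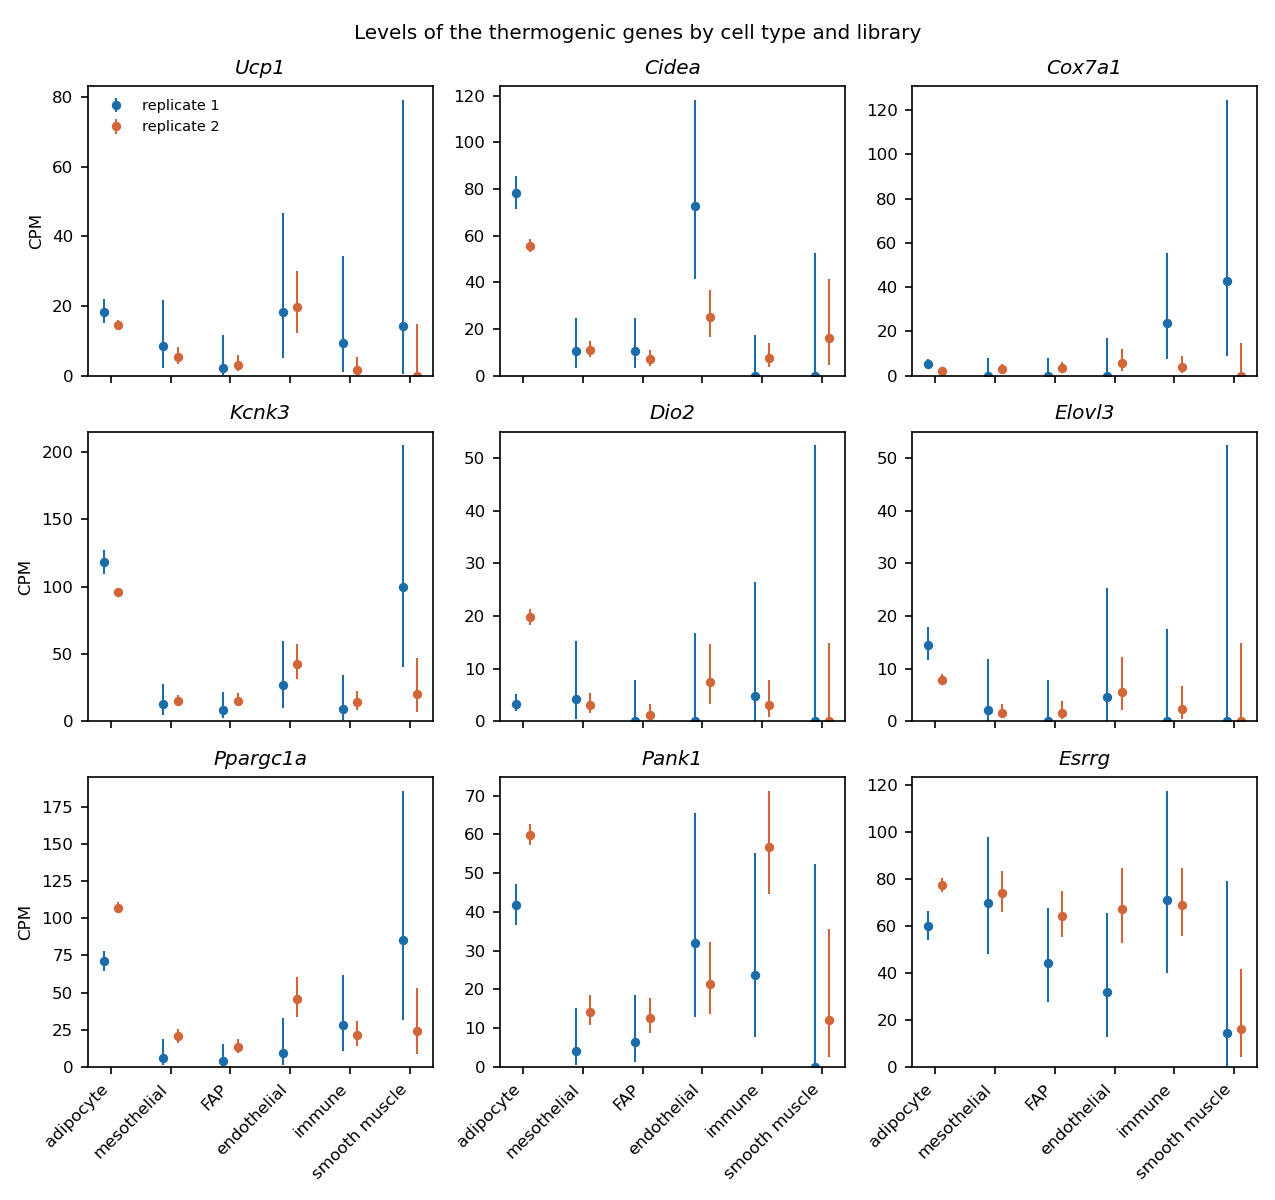
Level of each of the 9 detected members (CPM, y axis, a scale of its own per gene) in the named cell types (x axis). Each point is 1 library with its exact 95% counting interval, and the endothelial values lie near the adipocyte values for Ucp1 in both libraries, above them in replicate 2, and for Cidea in replicate 1.

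The first comparison asked whether the members are adipocyte genes in this tissue. Of the 7 members tested, 6 were higher in adipocyte nuclei than in the mean of the other 5 named types, in a test in which 32.2% of 13388 genes were higher and 27.1% lower. Cidea was higher by 2.85 on the log2 scale (SE 0.27, Benjamini-Hochberg adjusted p = 1.85e-15 from the quasi-likelihood test of edgeR, the source of all adjusted p-values here). Kcnk3 was higher by 2.84 (SE 0.22, adjusted p = 3.34e-19) and Ppargc1a by 2.64 (SE 0.24, adjusted p = 2.35e-16). Pank1 followed at 2.26 (SE 0.27, adjusted p = 3.59e-11) and Ucp1 at 2.13 (SE 0.42, adjusted p = 9.23e-06). Pooled over the other types, Ucp1 was at 8.28 and 5.62 CPM against 18.4 and 14.6 CPM in adipocyte nuclei, which as log2 ratios are 1.15 and 1.38, below the fitted value that weights the types equally and uses TMM factors. Cox7a1 was at -0.17 on the log2 scale (SE 0.56, adjusted p = 0.824), which did not pass, and it had entered the test through other types alone. Dio2 and Elovl3 fell under the filter on low counts and were not tested, with 3.34 and 19.8 CPM for Dio2 in adipocyte nuclei against 2.07 and 2.92 CPM in the other types pooled, and 14.5 and 7.88 against 1.38 and 2.06 CPM for Elovl3.

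Esrrg was the member with the smallest difference that passed, at 1.08 on the log2 scale (SE 0.22, adjusted p = 3.10e-05). Its pooled levels were close, at 59.9 and 77.3 CPM in adipocyte nuclei and 53.1 and 68.1 CPM in the other types. Mesothelial nuclei held 69.7 and 74.1 CPM and immune nuclei 71.1 and 68.9 CPM, ranges that overlap that of adipocytes, and smooth muscle nuclei 14.2 and 16.2 CPM. TMM scaling raised the median log2 fold change of all genes by 0.54, and without it 14.9% of genes were higher and 38.3% lower, so that higher calls made up 28.0% of all calls in place of 54.4%. The same 6 members passed without it, Esrrg by 0.55 with an adjusted p of 0.0404.

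The order of cell types differed between members. Ucp1 was at 18.2 and 19.6 CPM in endothelial nuclei, from 4 and 21 UMIs, which overlaps the adipocyte values, and at 2.11 and 2.99 CPM in FAPs. Cidea was at 72.8 and 25.2 CPM in endothelial nuclei, also within reach of adipocytes, and at 10.6 and 10.9 CPM in mesothelial nuclei. Endothelial nuclei also held Adipoq at 550 and 588 CPM, in replicate 2 more than the 343 CPM of adipocyte nuclei, and the 8 adipocyte markers summed there to 3731 and 4239 CPM. The largest endothelial cluster, of 366 nuclei, had an adipocyte score of 0.569, close under the limit of 0.6 for a rival class. The other endothelial clusters had adipocyte scores of 0.151 to 0.272. At a resolution of 0.3, 130 nuclei grouped beside endothelial nuclei scored 0.840 as adipocyte and 0.190 as endothelial and stayed unnamed. The endothelial values thus rest largely on a cluster near the naming limit, and the part of adipocyte RNA in them was not tested. Kcnk3 reached 99.5 and 20.3 CPM in smooth muscle, from 7 and 5 UMIs. Pank1 was at 23.7 and 56.8 CPM in immune nuclei, from 5 and 75 UMIs. Its adipocyte values of 41.7 and 59.9 CPM overlap this range, and both types lay close in replicate 2. Elovl3 was at 4.55 (95% interval 0.115 to 25.3) and 5.59 CPM in endothelial nuclei, from 1 and 6 UMIs, and the first interval spans both adipocyte values.

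With each nucleus thinned to 1000 UMIs, Kcnk3 was found in 10.3% and 8.55% of adipocyte nuclei and in 1.66% and 1.77% of the other named nuclei. Cidea was found in 4.60% (95% exact interval 3.65 to 5.70) and 3.52% (3.02 to 4.06) against 1.06% and 1.11%, and Esrrg in 3.71% and 5.19% against 4.83% and 7.14%. Esrrg was thus found in a higher share of the other nuclei than of adipocyte nuclei in both libraries. Pank1 was found in 3.77% and 4.75% of adipocyte nuclei against 1.21% and 2.01% of the other named nuclei. Its share of immune nuclei was 1.60% and 5.38%, above that of adipocyte nuclei in replicate 2 only. Ucp1 was found in 1.89% (1.29 to 2.65) and 0.939% (0.691 to 1.25) of adipocyte nuclei. For scale, Adipoq was found in 52.9% and 27.9% of adipocyte nuclei and in 18.0% and 10.1% of the others, although the latter should lack it. Before thinning, at median depths of 2815 and 5782 UMIs, Ucp1 was found in 3.71% and 3.12% of adipocyte nuclei and Cidea in 10.4% and 11.6%.

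Genes of the same pathways were read beside the members. Of the fatty acid oxidation genes, 25 of 27 tested were higher in adipocyte nuclei and none lower, with a median log2 fold change of 1.58 against 0.12 over all genes. Acsl1, which activates fatty acids, is among the markers that named the adipocytes, and without it the count is 24 of 26. Plin5, a lipid droplet protein of oxidative tissues, was higher by 3.20. Of the genes of transcriptional control, 10 of 20 were higher and 1 lower, led by Pparg at 3.52, the regulator of adipocyte identity. Of the brown and beige fat markers, 13 of 18 were higher and 2 lower, led by Nrg4 at 4.06 and Slc36a2 at 3.04. Cox8b was higher by 2.94, although its levels in replicate 2 were close. It was at 21.5 and 7.91 CPM in adipocyte nuclei against 7.59 and 7.57 CPM pooled over the other types. White adipocyte genes were also higher, 9 of 10, led by Tshr at 3.82 and Lep at 3.33. Of the adrenergic genes, 9 of 16 were higher and 2 lower, a split that turned to 6 and 7 without TMM scaling, with Adrb3, the adrenergic receptor of fat cells, higher by 2.91. Of the members' paralogs, 9 of 18 were higher and 4 lower, with Elovl6 at 3.44 and Ucp3 at 2.87, or 8 of 17 without Cidec, which is also among those markers. The relatives of Cpt1b went the other way, Cpt1c at -2.91 and Cpt1a, named after its value was seen, at -2.07. Of the creatine, calcium and glycerol cycle genes 5 of 15 were higher and 8 lower. The share of higher genes was close to the 32.2% over all genes, and the share of lower genes was above the 27.1% over all genes. Without TMM scaling 2 were higher and 9 lower, where 14.9% of all genes were higher and 38.3% lower.

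Within the adipocytes the members were not spread evenly. Clustering of adipocyte nuclei, again without the members and the list genes, gave 3 subclusters, of which subcluster 3 held 145 and 607 nuclei, or 8.54% and 12.1% of adipocytes. Subcluster 3 had the highest level of all 9 detected members in both libraries. Since other genes of the same nuclei formed the subclusters, these levels are a description and were not tested. Cidea was at 535 and 299 CPM in subcluster 3 and at 24.6 and 14.8 CPM in subclusters 1 and 2 together. Esrrg was at 406 and 398 CPM against 19.2 and 23.4 CPM, and Ucp1 at 114 and 91.4 CPM against 7.09 and 1.69 CPM. For these genes, the levels of the libraries do not come near each other between the subclusters. Pank1 was at 176 and 174 CPM against 25.9 and 40.8, and Dio2 at 12.7 and 95.9 against 2.24 and 6.95 CPM. Kcnk3 and Ppargc1a differed less, at 236 and 174 against 104 and 82.6 CPM and at 178 and 239 against 58.5 and 84.7 CPM. Cox7a1 was at 28.6 and 7.15 CPM against 2.42 and 1.43, and Elovl3 at 38.1 and 22.4 against 11.7 and 5.45 CPM. Adipoq went the other way, at 546 and 244 CPM in subcluster 3 and 1013 and 359 CPM in the others.

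**Figure D2:**
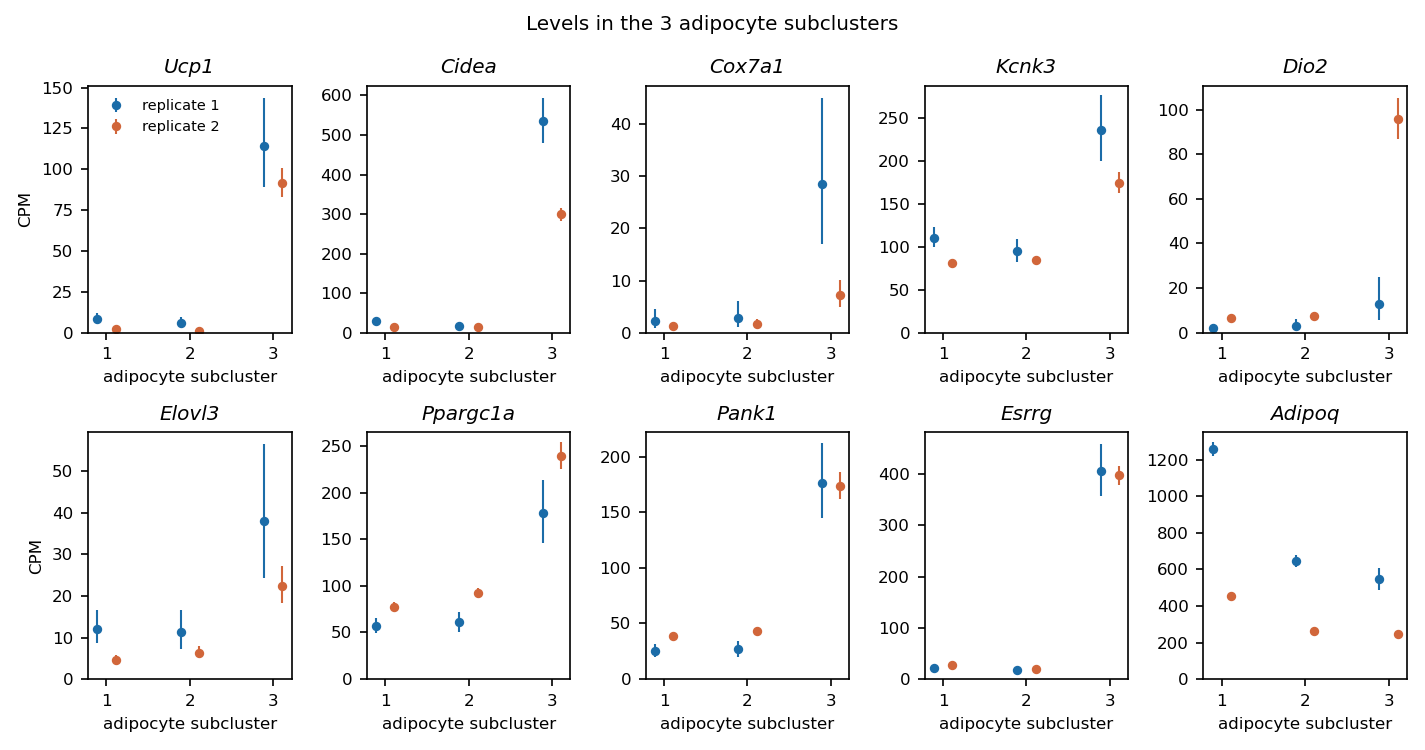
Level of each detected member and of Adipoq (CPM, y axis) in adipocyte subclusters 1, 2 and 3 (x axis) of replicate 1 and replicate 2, with exact counting intervals. The 9 members are highest in subcluster 3 in both libraries, and Adipoq is highest in subcluster 1.

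To ask the same without clusters, adipocyte nuclei of at least 2000 UMIs were thinned to that depth and split by whether they held a Cidea UMI. This gave 99 of 1194 nuclei with Cidea in replicate 1 and 306 of 4763 in replicate 2. Cidea made the split and has no test. The test covered 10297 genes, of which 2.84% were higher and 2.61% lower with Cidea (3.01% and 2.27% without TMM scaling). The filter on low counts asked for 7.14 CPM in 2 of the 4 sums. Kcnk3, Ppargc1a, Pank1 and Esrrg reached it in both libraries of the nuclei without Cidea, and all 4 were higher with Cidea, where 2.72% of the 9298 genes that reached it there were higher and 2.89% lower. Ucp1, Cox7a1, Dio2 and Elovl3 entered the test only through their level in the nuclei with Cidea, so that their being called is no support for the direction of the set. Their p-values below are conditioned on this filter, and without it the same 4 were also called. These counts rest on 2 mice and 1 residual degree of freedom, with the spread shared across genes.

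Ucp1 had the highest log2 fold change among the members. It was at 121 and 114 CPM in nuclei with Cidea and at 7.31 and 5.50 CPM in nuclei without, a difference of 4.22 on the log2 scale (SE 0.34, adjusted p = 2.36e-31, edgeR). Cox7a1, the respiratory chain member, was at 40.4 and 14.7 CPM against 1.37 and 1.46 CPM (log2 fold change 3.79, SE 0.73, adjusted p = 1.22e-05), from 8 and 9 UMIs in the nuclei with Cidea. Neither library of the nuclei without Cidea reached the filter's limit for Cox7a1, and with the clustering at a resolution of 0.3 its call was lost (adjusted p = 0.110, edgeR). Both libraries of the nuclei with Cidea lay above both of the others for these genes.

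Of the regulators, Esrrg had the lowest p, at 424 and 472 CPM against 26.0 and 43.3 CPM (log2 fold change 3.59, SE 0.18, adjusted p = 4.63e-83). Ppargc1a, its coactivator, was at 162 and 208 CPM against 59.8 and 91.1 CPM, a smaller difference (log2 fold change 1.22, SE 0.20, adjusted p = 9.08e-08). Both regulators lay higher in each library of the nuclei with Cidea than in either library of the nuclei without.

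Among the enzymes, Dio2 was at 15.2 and 99.7 CPM against 1.83 and 14.1 CPM (log2 fold change 2.81, SE 0.38, adjusted p = 3.08e-11), with 3 UMIs behind the first value. Its level was higher with Cidea within each library, but the value of replicate 1 with Cidea was close to that of replicate 2 without. Elovl3 was at 75.8 and 24.5 CPM against 8.68 and 6.51 CPM (log2 fold change 2.38, SE 0.47, adjusted p = 2.59e-05), and Pank1 at 146 and 178 CPM against 26.5 and 48.6 CPM (log2 fold change 2.01, SE 0.23, adjusted p = 3.64e-16). The channel Kcnk3 differed least, at 263 and 158 CPM against 90.0 and 86.3 CPM (log2 fold change 1.10, SE 0.19, adjusted p = 1.09e-06). Adipoq was at 677 and 276 CPM against 957 and 368 CPM. Without the library as a block, Ucp1 and Esrrg alone of the members passed.

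**Figure D3:**
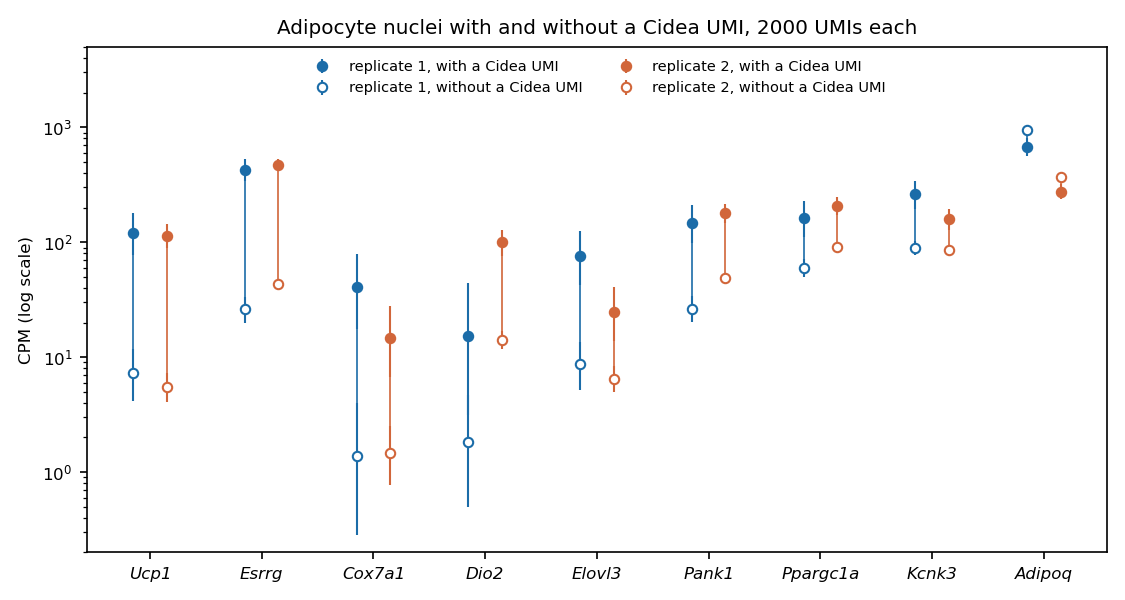
Level of each tested member and of Adipoq (CPM, y axis, log scale) in adipocyte nuclei with (filled) and without (open) a Cidea UMI at 2000 UMIs per nucleus, by library, with exact 95% counting intervals as thick bars and thin lines joining the points of a library. Each member is higher in the nuclei with Cidea in both libraries, and Adipoq is lower.

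Several measures moved with the split and their part in it was not tested. Before thinning, nuclei with Cidea had medians of 4271 and 6982 UMIs and nuclei without had 3644 and 5935. The mitochondrial share was 5.41% and 0.273% against 4.88% and 0.250%, and the median doublet score was lower in the nuclei with Cidea, at 0.0727 and 0.0580 against 0.0913 and 0.0796. The 8 adipocyte markers summed to 8364 and 8992 CPM against 9552 and 8749 CPM. Genes of striated muscle, which shares Cox7a1 and Esrrg with brown fat, summed to 20.2 and 32.7 CPM with Cidea against 23.7 and 47.6 CPM without, with 14 and 9 of 16 genes at 0 in the nuclei with Cidea. Subcluster 3 held 63.6% and 62.7% of the nuclei with Cidea and 5.39% and 8.88% of those without.

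The pathway lists were counted in the same split, where 2.84% of all genes were higher and 2.61% lower. Of the fatty acid oxidation genes 16 of 29 were higher and 1 lower, with a median log2 fold change of 0.76 against -0.02 over all genes. Over the genes that reached the filter's limit in both libraries of the nuclei without Cidea, 13 of 25 were higher here. For the brown and beige fat markers 4 of 13 were higher. Of all genes that reached it, 2.72% were higher and 2.89% lower. Slc27a2, a fatty acid transporter and activating enzyme, was higher by 4.00 on the log2 scale, Acot11, a thioesterase of brown fat, by 3.67, Fabp3, the heart fatty acid binding protein, by 3.30, and Plin5 by 2.51. Of the brown and beige fat markers, 7 of 17 were higher and none lower, with a median of 0.66. Ntrk3, the neurotrophin-3 receptor, was at 1101 and 917 CPM against 87.7 and 116 CPM (log2 fold change 3.21), and Otop1, a proton channel, at 80.8 and 45.8 CPM against 5.94 and 3.93 CPM (3.57). Cox8b, another oxidase subunit of muscle and brown fat, was higher by 2.16 and Cyp2b10 by 2.86, while Nrg4 at 0.18 and Slc36a2 at 0.12 did not pass. Slc27a2, Fabp3, Plin5, Otop1, Cox8b and Cyp2b10 did not reach the filter's limit in both libraries without Cidea. They entered the test through the nuclei with Cidea, whereas Acot11 and Ntrk3 reached the limit in both libraries without. Fabp3 was at 10.1 and 13.1 CPM with Cidea against 3.20 and 0.561 CPM without, and Cyp2b10 at 10.1 and 19.6 against 0 and 3.25 CPM. Both values of replicate 1 with Cidea lie under the floor of 3 counts, which is 15.2 CPM there.

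Of the genes of transcriptional control 5 of 19 were higher and none lower, where 2.84% of all genes were higher and 2.61% lower. Prdm16, the zinc finger protein that specifies brown fat, was at 242 and 203 CPM against 25.1 and 40.9 CPM (log2 fold change 2.59, SE 0.21, adjusted p = 1.77e-30 by edgeR). Ppara, the fatty acid sensing receptor, was higher by 1.91, Ebf2, which opens brown fat enhancers, by 1.43 and Cebpb by 1.04. Of the adrenergic genes 4 of 15 were higher and 1 lower. Adra1a, the alpha-1A receptor, was at 283 and 484 CPM against 75.3 and 109 CPM (2.02) and Adrb1 was higher by 1.77, whereas the lower gene was Adrb3 at -0.60, named after its value was seen. Of the cycle genes 5 of 11 were higher, led by the calcium channel Itpr2 at 2.57 and the glycerol kinase gene Gk at 1.98.

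White adipocyte genes were mostly lower, 7 of 11 with 1 higher and a median of -0.91. Nnat was at 40.4 and 19.6 CPM with Cidea against 245 and 83.8 CPM without (log2 fold change -2.37), Eepd1 was at -1.21 and Npr3, the clearance receptor of natriuretic peptides, also at -1.21. The gene that was higher was Adam12, by 1.18. Of the members' paralogs 3 of 15 were higher and 1 lower, where 2.84% of all genes were higher and 2.61% lower. Their log2 fold changes were 0.74 for Ppargc1b, 0.71 for Esrra, 0.37 for Elovl6 and -0.44 for Cidec.

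Some genes on the list of the brown fat lineage had few UMIs. In all adipocyte nuclei Myf5 had no UMI in either library, Zic1 had 0 and 9 UMIs, Lhx8 3 and 32 and Eva1a 3 and 40. The beige markers Cited1, Tmem26 and Tnfrsf9 were also low, with 2 and 15, 2 and 28, and 12 and 76 UMIs. They come from the list of brown and beige fat markers, of which 13 of 18 tested were higher in adipocyte nuclei and 2 lower. With Cidea 7 of 17 of that list were higher and none lower. Of the 13 that reached the filter's limit in both libraries without Cidea, 4 were higher. Over all genes, 32.2% were higher and 27.1% lower in adipocyte nuclei, and 2.84% higher and 2.61% lower with Cidea. Of all genes that reached the limit, 2.72% were higher with Cidea and 2.89% lower. The brown fat lineage list, which holds Myf5, Zic1, Lhx8 and Eva1a, holds Ucp1, Cox8b, Slc36a2 and Prdm16 as well. Over all 8 genes, 3 of 5 tested were higher in adipocyte nuclei than in the other types and 1 lower, and 3 of 4 tested were higher with Cidea and none lower, or 1 of the 2 that reached the filter's limit in both libraries without Cidea. The lower gene was Eva1a, at -2.38 (adjusted p = 0.000956, edgeR). It was listed by symbol, and whether it is the brown fat marker known as Eva1 was not checked. Its counts and call are therefore not read as a sign of brown fat origin. Tnfrsf9 of the brown and beige list was also lower in adipocyte nuclei, at -1.66 (adjusted p = 0.00601, edgeR).

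The third comparison asked whether single nuclei hold several members at once, more often than the share of each alone would give. The expected number of nuclei is the product of the shares at 2000 UMIs, a pair was called when the observed number was at least 1.5 times the expected in both libraries, and at least 3 expected nuclei in each library were needed. Of the 45 pairs 13 could be read and 6 were called, against 0.164% of 31588857 pairs of all genes. This share and those of all pairs given below were not matched for detection. A pair with a very widely detected gene cannot reach 1.5, so the shares do not measure how far the members exceed like genes. Among genes with at least 5 expected nuclei beside a member, 0% (Cox7a1 and Dio2) to 2.41% (Cidea) reached 1.5 in both libraries. Nuclei of a library are not replicates, and the intervals cover counting error only.

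Cidea and Esrrg gave the highest ratio of the pairs that could be read. Both were found in 37 nuclei of replicate 1 where 6.96 were expected, a ratio of 5.31 (95% interval 3.74 to 7.32), and in 102 nuclei of replicate 2 where 25.2 were expected, a ratio of 4.04 (3.29 to 4.90). Cidea and Pank1 followed at 3.75 and 2.47, and Pank1 and Esrrg at 3.46 and 2.38. Each of these 3 genes was thus called with both of the others. Cidea was also called with Kcnk3 at 2.36 and 1.74 and with Ppargc1a at 1.86 and 1.88, and Ucp1 with Kcnk3 at 2.06 and 2.22.

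The other 7 pairs were read and not called, although a second random thinning called 9 pairs in place of 6, with Kcnk3 and Esrrg, Ppargc1a and Esrrg, and Kcnk3 and Elovl3 among them. Kcnk3 and Ppargc1a, the most widely detected members, were together in 23 nuclei where 21.7 were expected and in 138 where 110 were expected, ratios of 1.06 and 1.26. Ucp1 and Ppargc1a reached 1.44 (0.466 to 3.35) and 2.23 (1.46 to 3.27), where replicate 1 held 5 nuclei. Ppargc1a and Esrrg reached 1.42 and 1.82 and Kcnk3 and Esrrg 1.93 and 1.39, each short of the limit in 1 library. The remaining pairs of Kcnk3 or Ppargc1a with Pank1, and of Kcnk3 with Elovl3, lay between 1.24 and 1.53.

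The pairs of the rarer members had too few expected nuclei to be called, but some counts were large. Ucp1 and Cidea were together in 17 nuclei where 2.65 were expected and in 44 where 4.95 were expected, ratios of 6.41 (3.73 to 10.3) and 8.89 (6.46 to 11.9). Ucp1 and Esrrg were together in 18 nuclei against 2.25 and in 43 against 6.35, the latter a ratio of 6.77 (4.90 to 9.12). Both pairs had higher ratios than Cidea and Esrrg in each library. Dio2 and Cidea were together in 3 nuclei against 0.580 and in 41 against 8.93. Cox7a1 and Cidea were together in 7 nuclei against 0.829, which are 7 of the 10 nuclei with Cox7a1, and in 9 against 1.35.

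**Figure D4:**
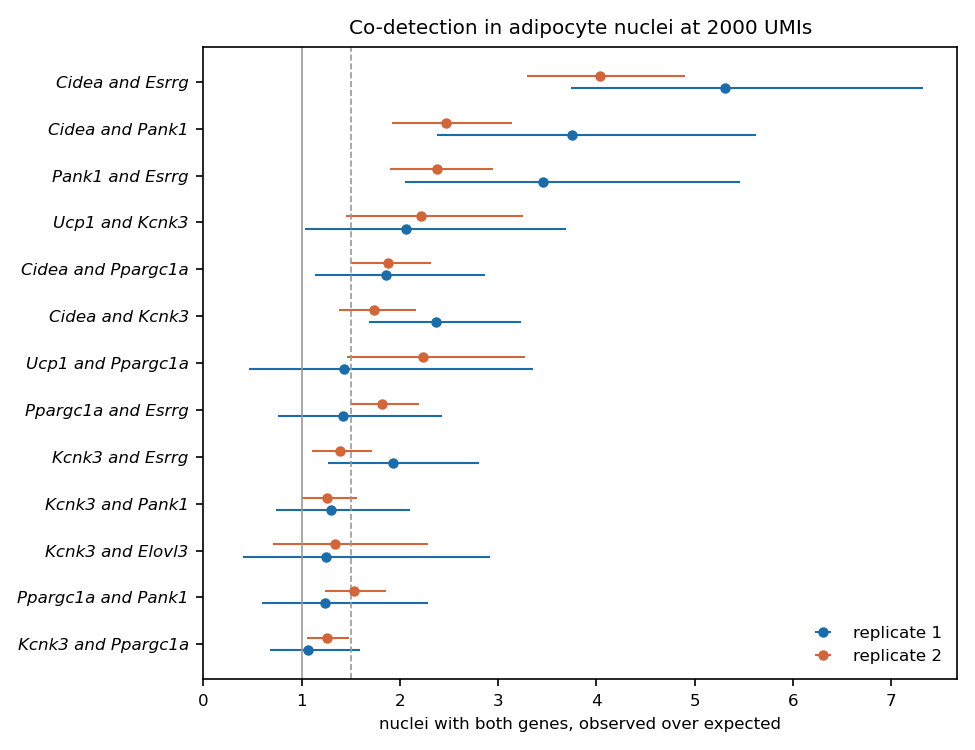
Observed over expected number of adipocyte nuclei with both genes of a pair (x axis) for the 13 pairs of members that could be read (y axis), with exact counting intervals for replicate 1 and replicate 2, a solid line at 1 and a dashed line at the limit of 1.5. Cidea and Esrrg lie farthest to the right.

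Without the nuclei of subcluster 3, none of the 7 pairs that could still be read was called, against 0.167% of all pairs of genes. Cidea and Kcnk3 were then at 2.01 and 1.34, Cidea and Ppargc1a at 1.39 and 1.45, and Kcnk3 and Ppargc1a at 0.922 and 1.19, while the other 4 of the 6 called pairs had too few expected nuclei to be read. Among these, Cidea and Esrrg were together in 2 nuclei against 1.28 and in 9 against 5.11, ratios of 1.57 (0.190 to 5.66) and 1.76 (0.806 to 3.35), and Cidea and Pank1 were at 3.46 and 1.37. Within subcluster 3 Cidea and Esrrg were at 1.47 (1.03 to 2.05) and 1.38 (1.12 to 1.69), below the limit. Of 17 pairs that could be read within it 3 were called, against 0.0834% of all pairs of genes, Cidea with Cox7a1 at 1.94 and 2.30, Ucp1 with Cidea at 1.57 and 2.06, and Ucp1 with Esrrg at 2.02 and 1.92.

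Members were also counted per nucleus. No member was found in 62.3% and 58.8% of nuclei. At least 3 members were found in 47 nuclei (3.94%) of replicate 1 against 14.3 expected, a ratio of 3.29 (2.42 to 4.37), and in 194 nuclei (4.07%) of replicate 2 against 73.5 expected, a ratio of 2.64 (2.28 to 3.04). Exactly 1 member was found in fewer nuclei than expected, 324 against 411 and 1391 against 1708, and so were exactly 2 members, 79 against 102 (ratio 0.775, 0.613 to 0.966) and 378 against 470 (0.804, 0.725 to 0.890). Of the nuclei with at least 3 members 80.9% and 84.0% belonged to subcluster 3, and the highest number of members in a nucleus was 6 and 7. Leaving Cidea out of the count, at least 3 members were found in 28 nuclei against 7.95 and in 140 against 48.5.

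**Figure D5:**
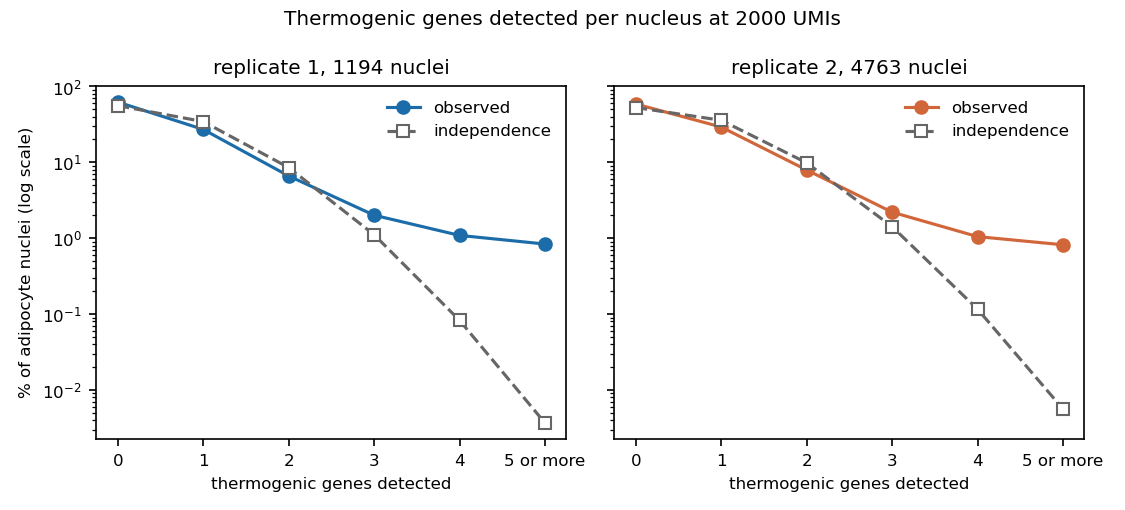
Percent of adipocyte nuclei at 2000 UMIs (y axis, log scale) by the number of members detected in them (x axis), observed (circles) and expected from the shares of the single members (squares), for replicate 1 and replicate 2. Nuclei with 4 and with 5 or more members exceed the expected number in both libraries.

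The genes most like each member were ranked by the lower ratio of the libraries, among genes with at least 5 expected nuclei in each. For Cidea, Esrrg ranked 1 of 5354 genes, Pank1 11, Ppargc1a 36 and Kcnk3 50, and 129 genes (2.41%) reached a ratio of 1.5 in both libraries. Next to Esrrg stood Pdgfd, a platelet-derived growth factor, at 5.19 and 3.74, Ntrk3 at 4.51 and 3.49 and Prdm16 at 5.12 and 3.47. Then came the sorting receptor gene Sorcs2, Itpr2, the fatty acid activating enzyme Acsl5, the kinase Pim1, Adra1a, the thiolase Acaa2 of fatty acid oxidation and the retinoic acid receptor Rarb, the last at 3.55 and 2.41. Esrrg had much the same leading genes, with Cidea first, then Prdm16, Ntrk3, Sorcs2, Pdgfd and Itpr2, and Pank1 at rank 7.

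For Pank1, Cidea ranked 1 and Esrrg 2 of 4351 genes, before ENSMUSG00000120396, Acaa2, Ntrk3, Dvl3 and Itpr2. For Ppargc1a, Cidea ranked 1 of 6395, before Ntrk3, Acot11, Pdgfd, Acaa2 and Adra1a, and 3 genes reached 1.5 in both libraries. The number was 11 for Pank1, 12 for Kcnk3, 59 for Esrrg, 41 for Ucp1 and 6 for Elovl3. Kcnk3 had Ucp1 at rank 1 and Cidea at rank 4 of 7913 genes, with Cxadr and Col27a1 between and Ruvbl2, Pim1 and Acot11 after. Ucp1 could be ranked against 1828 more widely detected genes, led by Hadha, the trifunctional protein subunit of fatty acid oxidation, at 2.70 and 2.87, then Aspg, Tmem45b, Rnf150 and Sucla2, with Kcnk3 at rank 6. Elovl3 was led by Acadl, the long-chain acyl-CoA dehydrogenase, at 1.76 and 1.74, then Gpi1, Lrpap1, Cyp51 and Atp8a1. Cox7a1 and Dio2 could be set against 264 and 109 genes, none of which reached 1.5 in both libraries. The first 5 were Dbi, Bhlhe40, Hivep2, Sox5 and Diaph2 for Cox7a1 and mt-Co1, Gpd1, Nrg4, Plin1 and Aplp2 for Dio2.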

How the data were processed

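Nuclei of whole gonadal fat from 2 mice were read, 1 library each. With CeleScope (version and annotation not given in the sources used here) the authors mapped the reads to GRCm39 and called nuclei, and they deposited whole counts of UMIs for 56980 genes and 24492 called nuclei, without normalization. Positions came from GENCODE vM39 on the same build, matched by identifier.

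Kept nuclei (over 500 genes, over 1000 UMIs, under 15% mitochondrial UMIs) were scaled and log transformed. The 1000 most variable genes, without the members and listed genes, gave 30 principal components, which were corrected for the library with a Harmony implementation and clustered by the Leiden method (20 neighbours, resolution 0.1; scanpy 1.11.5, leidenalg 0.10.2, Python 3.11.15). A cluster was named where a class scored at least 0.6 of its peak marker level over at least 3 markers and no other class reached 0.6 of that score. A subcluster scored as adipocyte within a cluster led by another class stayed unnamed, a rule set after seeing the clusters. Adipocytes were clustered again with 16 components at a resolution of 0.3. Scrublet marked 1 nucleus in each library (0.0353% and 0.00818%) and so did not separate doublets, and none were removed.

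UMIs summed per library and cell type, or per library and Cidea state, were tested with edgeR 4.0.16 under R 4.3.3 (TMM, filterByExpr, quasi-likelihood test, library as a block, Benjamini-Hochberg over all genes, threshold 0.05). The block was used because all cell types of a library come from 1 animal. Over 15 pairs of types and 3063 genes the library deviations correlated with r from 0.327 to 0.757, median 0.473, across genes, which are not independent. Between the libraries, adipocyte gene totals gave a chi-square of 104 per degree of freedom, and the libraries were counted as separate samples. With the block, the level of each library is removed. The p-values then set each difference between groups of nuclei against a spread between the 2 mice that is shared across genes. In the Cidea split only 1 residual degree of freedom is the gene's own. A small p-value there does not by itself show that the gene's difference was alike in both mice. On simulated counts, the test of cell types recovered 93.7% of genes changed by a log2 fold of 1 and 100% at 2 (10889 genes), and the Cidea split 40.2% and 98% (10231 genes).

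Shares were read after thinning to 1000 UMIs and co-detection after thinning to 2000, which left out 503 and 244 shallower adipocyte nuclei. Intervals are exact at 95% and, like the floor of 3 counts, cover counting error only. DESeq2 1.42.0, other filters, clusterings, depths and scalings were alternatives. All members are named. Of each pathway list the text names up to 4 genes with the largest absolute fold change among those that passed, and of co-detected genes the first 10 for Cidea and 5 for the others, except for an item that is not reported here. The members and lists were chosen with earlier results of these data known. Gyk of the brown and beige list matched no row.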

Additional observations from a re-analysis of the deposited data

How the results depend on the processing

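The counts of members held under most alternatives. In the comparison of cell types the number of higher members lay between 5 and 8 against 6, with DESeq2 and with no filter adding Dio2 and Elovl3, and with Ucp1 under the filter at a resolution of 0.3 and without the highest doublet scores. At the 5% mitochondrial limit mesothelial, endothelial and smooth muscle nuclei were too few to enter, and with 15 components no cluster was named immune, so that adipocytes were set against fewer types there. The number was 6 without TMM factors, with the unnamed nuclei of the adipocyte cluster included or with the adipocyte-scored subclusters of other clusters included, all chosen after seeing the data. For all genes, edgeR gave 4316 higher and 3624 lower, DESeq2 2222 and 5437, edgeR without TMM factors 2001 and 5133, and edgeR without the filter 6296 and 2895. Cox7a1, which did not pass, turned to a log2 fold change of 0.17 without the filter (adjusted p = 1) and 0.072 without the replicate block (adjusted p = 0.961, edgeR), and the cause was not tested. In the Cidea split 6 to 8 members passed, except that without the replicate block 2 did, with 11 genes higher and 0 lower over all genes in place of 292 and 269; DESeq2 called 96 and 55 of 6865 genes, and edgeR without the filter 132 and 245 of 33468. Pairing by library thus decides 6 of the 8 calls there. Split by Esrrg in place of Cidea, chosen after seeing the data, 8 of 8 passed, where 1.83% of 10397 genes were higher and 1.36% lower. Ucp1, Cox7a1, Dio2 and Elovl3 again entered only through the nuclei with the splitting gene, and the other 4 passed where 1.75% of 9495 genes were higher. Of the pairs that could be read, 6 of 13 in the main setting, 10 of 13 were called at a resolution of 0.3, 9 of 12 with another seed of the thinning, 4 of 7 at 1000 UMIs, 4 of 13 at a ratio of at least 2, 11 of 18 at 4000 UMIs, 11 of 14 with the adipocyte-scored subclusters of other clusters included and 0 of 7 with subcluster 3 left out, where 4 of the 6 could no longer be read. When a library was left out, 23 of 27 were called without replicate 1 and 7 of 13 without replicate 2. Cidea with Esrrg was called in 14 of 15 alternatives and Ucp1 with Kcnk3 in 10. With 1 library the tests have no residual degrees of freedom, so only ratios of CPM are given: for Esrrg, adipocytes against the other types, the log2 ratio was 0.18 without replicate 1 and 0.17 without replicate 2, against a fitted 1.08, and for Ucp1 1.38 and 1.15 against 2.13, where the ratio weights types by their UMIs and uses no TMM factor. Of 925 alternatives for single genes, 825 were labelled the same, 84 weaker, 14 moved and 2 reversed. Where a test was run, same means that the direction held and that the gene stayed called or stayed not called. Weaker means that a call was lost or had no adjusted p. With 1 library no test was run, and same means a CPM ratio within the SE times the square root of 2 of the fitted value. Moved means one farther off. The values of Dio2 and Cox7a1 in adipocyte nuclei of replicate 1 rest on 20 and 31 UMIs.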

Other observations

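The nuclei left unnamed held the members too, and most of them scored best as adipocytes, 308 and 2217 in the adipocyte cluster below the limit of the score and 68 and 419 over it in clusters led by another type. The 9 detected members summed to 341 and 341 CPM in unnamed nuclei, to 411 and 440 CPM in adipocyte nuclei and to 130 and 154 CPM in the other named types. Cidea was at 43.0 and 31.0 CPM in the unnamed nuclei and Ucp1 at 10.7 and 7.23 CPM. Esrrg was higher there than in adipocyte nuclei in both libraries, at 91.9 and 114 CPM. Adipocyte nuclei held 80.5% and 77.1% of the UMIs of named nuclei. They held 96.6% and 94.6% of those of Kcnk3, 94.7% and 94.4% of those of Cidea and 90.2% and 89.7% of those of Ucp1, but 82.3% and 79.2% of those of Esrrg and 79.5% and 68.6% of those of Cox7a1.

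Split by an Esrrg UMI in place of a Cidea UMI, a choice made after seeing the data, Ucp1 was higher by a log2 fold change of 4.06 (adjusted p = 1.53e-29), Dio2 by 2.79 and Prdm16 by 2.40, by edgeR's quasi-likelihood test, which Ucp1 and Dio2 entered only through the nuclei with Esrrg. Cox8b, at 2.16 in the Cidea split, was at 0.86 (adjusted p = 0.621) in the Esrrg split and did not pass.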
